A study of Mus musculus with 12 samples.

Results

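The genes described are 8 regulators of pluripotency, Nanog, Pou5f1, Sox2, Klf2, Klf4, Esrrb, Zfp42 and Trim28, out of 21951 protein-coding genes of the GENCODE vM21 annotation (mouse build GRCm38). They were chosen by name. For each gene, small-RNA reads of 18 nt or more that matched a transcript exactly, in the sense direction and no other gene, were counted in the first 200 nt of any of its transcripts (the start window) and, apart from these, in the rest of the transcripts. All 8 genes had window reads, 3506 in all against 877469 for all protein-coding genes, and 11954 reads from the rest of their transcripts.

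The libraries are 12 size-selected small-RNA libraries of mouse embryonic stem cells. TT-FHAgo2 cells carry Ago2 with FLAG and HA tags under doxycycline (Dox) control and TT-Ago2 cells carry untagged Ago2; both are clonal lines kept in 0.1 µg/mL Dox. At 2.5 µg/mL Dox there were 2 FLAG immunoprecipitates (IPs) of the tagged line, 2 of the untagged line, 2 inputs of the tagged line and 2 inputs of the untagged line, all cloned without the need of a 5' phosphate. The other 4 libraries, cloned in a way that needs a 5' phosphate, were single: the tagged line at 2.5 µg/mL Dox, the tagged line without Dox, Dicer-null cells and wildtype cells, these last 2 without Dox. The series text describes cells without Ago proteins. The 2 libraries of a group are called A and B after the codes in their titles, which also mark the longest read (50 nt in A, 51 nt in B, 40 nt in the single libraries).

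Pou5f1 (Oct4), Sox2 and Nanog are transcription factors at the centre of the network that keeps embryonic stem cells undifferentiated. Klf2, Klf4 and Esrrb are further transcription factors of that network, Zfp42 (Rex1) is a zinc-finger protein used as a marker of the naive state, and Trim28 (KAP1) is a co-repressor that silences retroelements. Short RNAs near a start site can come from paused RNA polymerase, and short RNAs elsewhere in a transcript from its breakdown or processing; an Argonaute IP is meant to hold RNAs that Argonaute binds.

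Library totals ran between 14474875 and 78762632 reads. Reads inside miRNA hairpins were 58.3% and 50.7% of the tagged IPs, 9.19% and 13.1% of the untagged IPs and 1.81 to 3.36% of the 4 inputs. With reads that match a hairpin apart from their end bases (end variants) counted too, these shares were higher. They were then 76.4% and 76.2% of the tagged IPs, 11.2% and 21.7% of the untagged IPs and 3.76 to 5.61% of the inputs. Without end variants, hairpin reads were 10.3% with Dox and 1.30% without it, and 1.42% in Dicer-null and 21.1% in wildtype cells. Every share of another RNA class moves with these shares. All 8 genes had reads in all 12 libraries when windows and the rest were added. Of 21 differentiation and fibroblast genes, 1 to 13 had a read in a library, with window sums of 0 to 0.51 CPM (counts scaled to a library total of 1000000), against 3.16 to 36.8 CPM for the 8 genes; Col1a2, Col3a1, Dcn, Postn, T and Foxa2 had 0 reads in all libraries.

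Some of the members' window reads are printed below, in lower case with the 5' base in capitals. It is the 5' end that sets which window a read falls in. Positions on a transcript count from 1 at its first base. The first 5 reads came from the libraries cloned without the need of a 5' phosphate, and the other 4 only from those that need it.
Trim28, 19 nt, chr7:13030525-13030543, plus strand, exon 16, coding: Atagctccccccaggagtt
Pou5f1, 18 nt, chr17:35506144-35506161, plus strand, exon 1, coding: Aggtgggggtgatgggtc
Zfp42, 25 nt, chr8:43304478-43304502, minus strand, exon 2, 5' UTR: Agagtgagtgtgcagtgcagccagc
Esrrb, 18 nt, chr12:86470136-86470153, plus strand, an intron of the reference transcript: Gtgttcgcaggctgctga
Klf4, 28 nt, chr4:55531630-55531657, minus strand, exon 2, coding: Actgcgtccagcaggtgccccgactaac
Zfp42, 25 nt, minus strand of chromosome 8, spliced from exon 1 to exon 2, 5' UTR: Gctgtgggcattagagaaatggact
Klf2, 18 nt, chr8:72319472-72319489, plus strand, exon 2, coding: Taaacaacgtgttggact
Nanog, 19 nt, chr6:122707611-122707629, plus strand, exon 1, 5' UTR: Tggtgtcttgctctttctg
Trim28, 29 nt, plus strand of chromosome 7, from exon 3 across a splice junction, coding: Gtgcgctccacaggacctgctaagactcg

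These reads were rare. The Trim28 19 nt read was counted 4 and 2 times in the tagged IPs A and B and 17 and 7 times in the untagged IPs, and in no input. The Pou5f1 read was counted 0 and 3 times in the tagged IPs, 1 and 7 times in the untagged IPs, and 5 times over the 4 inputs. The first Zfp42 read was counted 0 and 3 times in the tagged IPs and 4 and 0 times in the untagged IPs. Among reads of at most 30 nt these 3 were the most frequent of their genes in the tagged IPs. For Nanog, Sox2, Klf2 and Klf4 the most frequent had 1 read there, so no sequence stood out. Of the other printed reads, the Nanog read was counted 8 times, all in Dicer-null cells, and the Klf4 read 5 times, all in the untagged IPs. The Klf2 read was counted 3 times without Dox and 6 times in Dicer-null cells. The Esrrb read had 9 reads in 4 libraries, the spliced Zfp42 read 15 in 3 and the 29 nt Trim28 read 65 in 4.

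Where the windows lie decides what their reads can be read as. The start windows cover every annotated transcript of a gene, and of the 3506 window reads 32.4% lay in the first 200 nt of the reference transcript, 16.2% in the start of another coding transcript and 51.4% in the start of a transcript without coding sequence. Over all protein-coding genes 50.01% of window reads lay in reference starts. Gene by gene, the median share was 59.3% for the 8 members and 32.3% for the 3146 genes with at least 50 window reads, of which 18.3% had less than 10%.

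**Figure D1:**
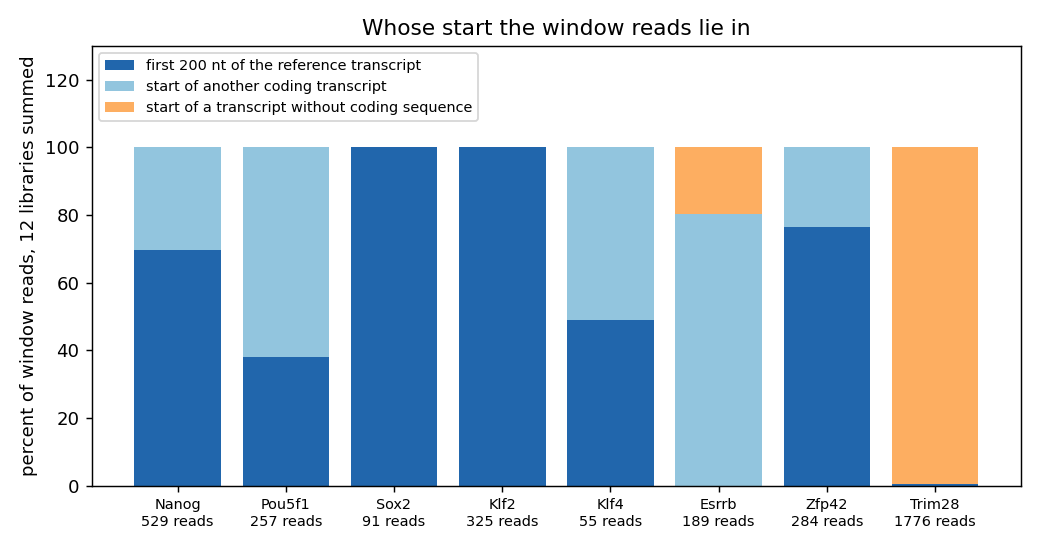
Percent of each gene's window reads, over 12 libraries, that lie in the first 200 nt of the reference transcript, in the start of another coding transcript or in the start of a transcript without coding sequence. Sox2 and Klf2 lie wholly in the reference start, Trim28 at 0.56% and Esrrb at 0%.

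For Sox2 (91 reads) and Klf2 (325 reads), which have a single annotated transcript each, all window reads lay in the reference start. Zfp42 had 217 of 284 reads there and Nanog 368 of 529. Klf4 had 27 of 55 and Pou5f1 98 of 257; another 53 Pou5f1 window reads also matched other genes and were not counted. Esrrb had 0 of 189 and Trim28 10 of 1776. The Trim28 window is thus made almost wholly of the starts of internal transcripts, of which the gene has several among its 10 annotated transcripts. Of its reads 1481 match the reference transcript over their whole length and cannot be told apart from reads of the body of the full-length mRNA, while 288 begin in its introns.

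The start windows were not reads of the very first bases. Of the 1136 reads in reference starts, 15 began within the first 10 nt. Over all genes, 8.06% of reads in reference starts began there, with 1.38 to 16.5% by library.

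The RefSeq promoter table (GRCm38.p6) puts the start of Sox2 410 bases before the GENCODE transcript, whose annotated 5' UTR has only 11 nt. In the stretch of 250 bases before to 50 after that RefSeq start, 31 reads matched that matched no annotated transcript. These 31 reads came from 11 of 12 libraries. Of them 28 began at or after the RefSeq start and 15 within its first 10 bases. The libraries that held these 28 or 15 reads were not counted. The most frequent of at most 30 nt had 4 reads and began 3 bases after the first base of the RefSeq transcript.
Sox2, 29 nt, chr3:34649998-34650026, plus strand: Tggttgtctattaacttgttcaaaaaagt
Reads in that stretch numbered 0 to 8 in a library, and a match elsewhere in the genome could not be searched. Other genes cannot be set beside Sox2 here, because reads that match an annotated transcript were left out. For Trim28, and for Nanog at the start with the more reads, a GENCODE transcript begins 0 bases from the RefSeq start. Reads of that transcript were not counted, so 17 of 17 and 9 of 9 reads lay before it. The nearest GENCODE start is 29 bases away for Zfp42, where 11 of 17 reads lay before the RefSeq start. It is 9 bases away for Klf4, whose 5 reads all began within the first 10 bases after the RefSeq start.

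The 5' ends used were partly separate between the cloning protocols. Of 174 window 5' ends with at least 5 reads over the 12 libraries, 45 were found only in the 8 libraries cloned without the need of a 5' phosphate, 58 only in the 4 that need it and 71 in both. Trim28 held 92 of the 174 ends and 45 of the 71. The split over the windows of all genes was not counted, so it cannot be called particular to the members. The cloning, the lines, the IP and the sequencing runs change together between these sets of libraries and cannot be told apart.

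For Zfp42 the most used end, at position 83 of the reference transcript in exon 1, had 12 reads with Dox, 10 without Dox, 7 in Dicer-null cells and 0 in wildtype cells, and 0 in the IPs and inputs. The next, at position 154 in exon 2, had 5 reads in the tagged IPs, 21 in the untagged IPs, 1 in the tagged inputs and 0 in the other libraries. The spliced Zfp42 read above starts at the first of these ends and the other Zfp42 read at the second.

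Klf2 showed the same split. Its ends at positions 64 and 82, in coding exon 1, had 2 and 2 reads in the tagged IPs and 33 and 27 in the untagged IPs, 2 and 1 in the tagged inputs, 1 and 1 in the untagged inputs, and 0 in the single libraries. The end at position 164 in exon 2, where the printed Klf2 read starts, had 5 reads with Dox, 5 without Dox, 12 in Dicer-null cells and 0 in all others.

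Nanog differed in that its most used end, at position 27 in the 5' UTR, had 6 reads in the tagged IPs, 11 in the untagged IPs, 5 in the tagged inputs, 2 in the untagged inputs and 2 in Dicer-null cells. Its ends at positions 139 and 40 were found only in the single libraries, with 15 and 14 reads. The Pou5f1 end at position 127, where the printed read starts, had 16 reads, all in the IPs and inputs. All 16 were that 18 nt sequence, the shortest length counted, and 7 of them came from untagged IP B. A match elsewhere in the genome could not be searched.

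**Figure D2:**
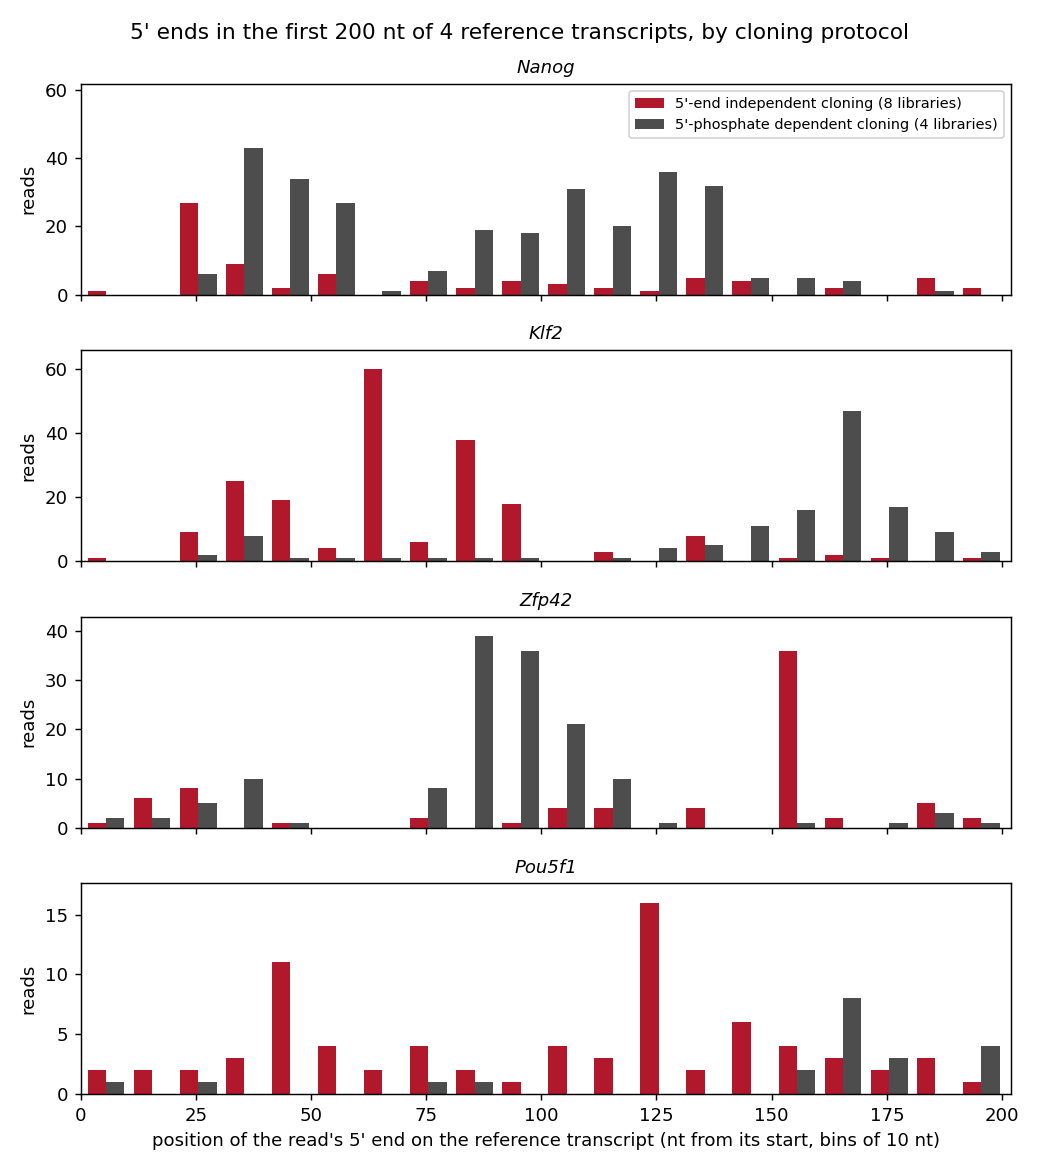
Reads by the position of their 5' end in the first 200 nt of the reference transcript, in bins of 10 nt, for 4 genes and by cloning protocol. In Klf2 and Zfp42 the tallest bins of the protocols lie at different positions, such as those of positions 64 and 164 in Klf2.

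Per base, the reference starts of some members held more 5' ends than the rest of the transcript. In the untagged IPs the ratio of the 2 densities was 4.87 for Klf2 and 1.66 for Nanog, against a median of 0.71 over 2873 genes with at least 50 reads. In the tagged IPs it was 2.03 for Klf2 and 1.36 for Nanog, against a median of 0.94 over 448 genes. Sox2 gave 1.19 in the tagged IPs and 0.73 in the untagged IPs, both near the median. Zfp42 gave 1.52 in the tagged IPs and 0.56 in the untagged IPs. In Dicer-null cells Zfp42 gave 2.30 and Nanog 1.98, against a median of 0.82 over 4901 genes, while Pou5f1 gave 0.15 and Sox2 0.24. This order was not particular to cells without Dicer. Nanog gave 2.93 in wildtype cells, 1.35 with Dox and 2.18 without it, against medians of 0.57, 0.43 and 0.46. With and without Dox Zfp42 gave 1.87 and 1.68, and in wildtype cells it had fewer than 50 reads. Pou5f1 and Sox2 gave at most 0.26 in these 3 libraries. In the tagged and untagged IPs Pou5f1 gave 0.62 and 0.62, Esrrb 0 and 0, and Trim28 0 and 0.03. In the tagged and untagged inputs the medians were higher, 2.13 over 242 genes and 2.29 over 266. Nanog lay near them, at 2.68 and 2.84, and Klf2 above, at 4.36 and 3.77.

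Most window reads fell outside the length of miRNAs. The share of 20 to 24 nt, the range that holds most miRNAs, was 20.2% and 25.3% of the member window reads in the tagged IPs (99 and 95 reads), 22.6% and 19.7% in the untagged IPs (651 and 315 reads), 37.6% and 32.9% in the tagged inputs and 27.4% and 37.5% in the untagged inputs. Both IP groups lay below both input groups. The 95% exact (Clopper-Pearson) interval was 12.8 to 29.5% in tagged IP A and 16.9 to 35.2% in tagged IP B.

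The tagged IPs averaged 22.7 ± 3.58% and the untagged IPs 21.1 ± 2.05% (SD, n = 2 each), with overlapping ranges and an exact two-sided permutation p of 0.667. Against the tagged inputs, at 35.3 ± 3.33% (SD, n = 2), the ranges of the tagged IPs did not overlap, with p = 0.33 in the exact permutation test (two-sided), the lowest value that this design of 2 against 2 allows. Over all start windows the same share was 35.1% and 42.2% in the tagged IPs, 17.3% and 23.2% in the untagged IPs and 22.1 to 26.4% in the inputs, so the members did not show the higher share that all windows had in the tagged IPs. Reads over 30 nt made 53.5% and 41.1% of the member window reads in the tagged IPs, 47.6% and 49.5% in the untagged IPs and 17.5 to 34.7% in the inputs.

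The 5' base differed between IPs and inputs. A was the first base of 57.6% and 51.6% of member window reads in the tagged IPs, 71.3% and 61.0% in the untagged IPs, 37.6% and 36.6% in the tagged inputs and 36.3% and 38.8% in the untagged inputs. For the members pooled, the IPs lay above the inputs in both lines, by 17.5 percentage points in the tagged line and 28.6 in the untagged line (exact two-sided permutation p = 0.33 in each, n = 2 per group). In the tagged line Trim28 (66.7% against 35.3%), Pou5f1, Sox2 and Klf4 had this order. Nanog (47.6% against 57.1%), Klf2, Esrrb and Zfp42 went the other way, on few reads. In the untagged line only Klf2 did (65.0% against 66.7%). All start windows pooled had the same order, with 38.1% and 27.6% in the tagged IPs and 19.3% and 9.12% in the tagged inputs. In the single libraries T was the most frequent first base, with 32.6% with Dox, 34.3% without it, 36.8% in Dicer-null and 41.7% in wildtype cells. In the rest of the members' transcripts A began 58.5% and 52.2% of reads in the tagged IPs and 70.9% and 60.1% in the untagged IPs, close to the window shares.

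**Figure D3:**
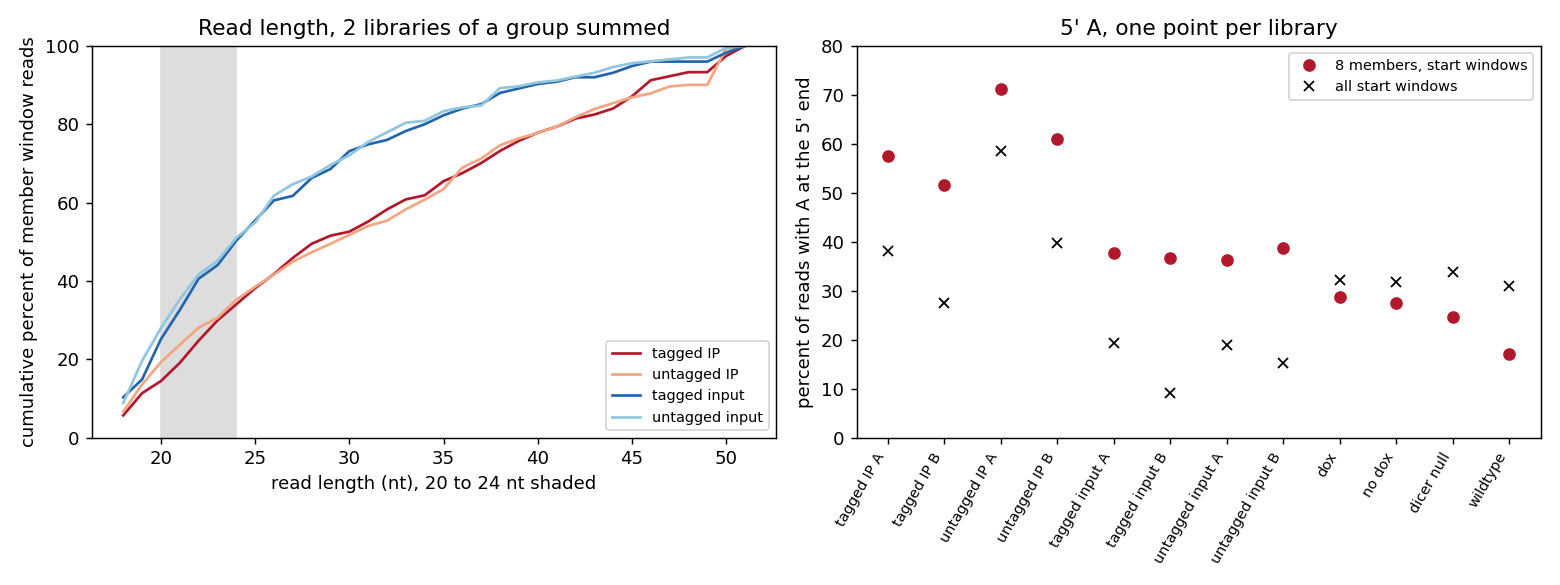
Left, cumulative percent of member window reads by length for the 4 groups of the IP experiment; right, percent of reads with A at the 5' end in each library for the members (circles) and for all start windows (crosses). The IP curves lie to the right of the input curves, and the members' A share is highest in untagged IP A, at 71.3%.

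In CPM, the member windows were lower in the tagged IPs than in the untagged IPs, in which Ago2 carries no FLAG tag. CPM is a share of all reads of a library, and hairpin reads took unlike shares of the 2 kinds of IP. A lower CPM in an IP is thus not by itself a lower level of the transcript in the cells. In any of these bulk libraries, fewer cells with a transcript and less of its RNA per cell cannot be told apart. Nanog windows had 0.43 and 0.47 CPM in the tagged IPs A and B, 2.65 and 1.92 CPM in the untagged IPs, 0.74 and 0.54 CPM in the tagged inputs and 0.84 and 0.55 CPM in the untagged inputs. Both tagged IPs lay below all 6 other libraries of that experiment. With hairpin reads left out of the totals they had 1.02 and 0.94 CPM. They then lay above the tagged inputs (0.76 and 0.55 CPM) and untagged inputs (0.87 and 0.57 CPM), and still below the untagged IPs (2.92 and 2.21 CPM). Trim28 windows had 2.86 and 0.93 CPM in the tagged IPs, 20.9 and 8.23 CPM in the untagged IPs, 2.94 and 1.29 CPM in the tagged inputs and 3.12 and 1.52 CPM in the untagged inputs. The untagged IPs stood above the rest and the other groups overlapped. Of the 8 windows, 7 had both tagged IPs below both untagged IPs, with Klf4 the exception. The share of all windows with that order was not counted, so this count of members cannot be called particular to them. By another measure, the test below, 86.1% of 928 windows were called lower in the tagged IPs, a set without Sox2 and Klf4.

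In edgeR's quasi-likelihood test over 928 windows (Benjamini-Hochberg adjusted p under 0.05), 6 members passed the filter on low counts, Sox2 and Klf4 not. All 6 were lower in the tagged than in the untagged IPs, and so were 86.1% of all windows tested. Trim28 had a log2 change of -2.96 ± 0.69 (SE, edgeR adjusted p = 0.00107), Klf2 -2.87 ± 0.76, Zfp42 -2.37 ± 0.75, Pou5f1 -2.35 ± 0.71, Nanog -2.34 ± 0.71 and Esrrb -1.69 ± 0.75 (edgeR adjusted p = 0.0353). The median over all windows was -2.63. Zfp42 passed the filter only through the untagged IPs, with 2.26 and 1.48 CPM there and at most 0.42 CPM in the other groups. Its call is thus in part set by the filter, and how many other windows passed in this way was not counted. Without the filter, 5 of 8 members and 977 of 11971 windows were called lower in the tagged IPs. The tagged IPs also held the most hairpin reads of these libraries. With TMM factors, which scale libraries to their typical window, the median was -0.08 and no member was called, and Nanog, Pou5f1, Zfp42 and Esrrb had changes above 0. With hairpin reads left out of the totals the median was -1.51 and 1 member was called. With their end variants left out too, an alternative chosen after seeing the data, the median was -0.53 and no member was called. Of 1398 windows 77 were then called higher in the tagged IPs and 3 lower. Without tagged IP A 2 members were called, Trim28 at -3.96 and Klf2 at -4.07, and without tagged IP B none of the windows was. Without untagged IP A Trim28 had -2.15, Klf2 -2.05 and Esrrb -0.82, and Esrrb was no longer called.

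**Figure D4:**
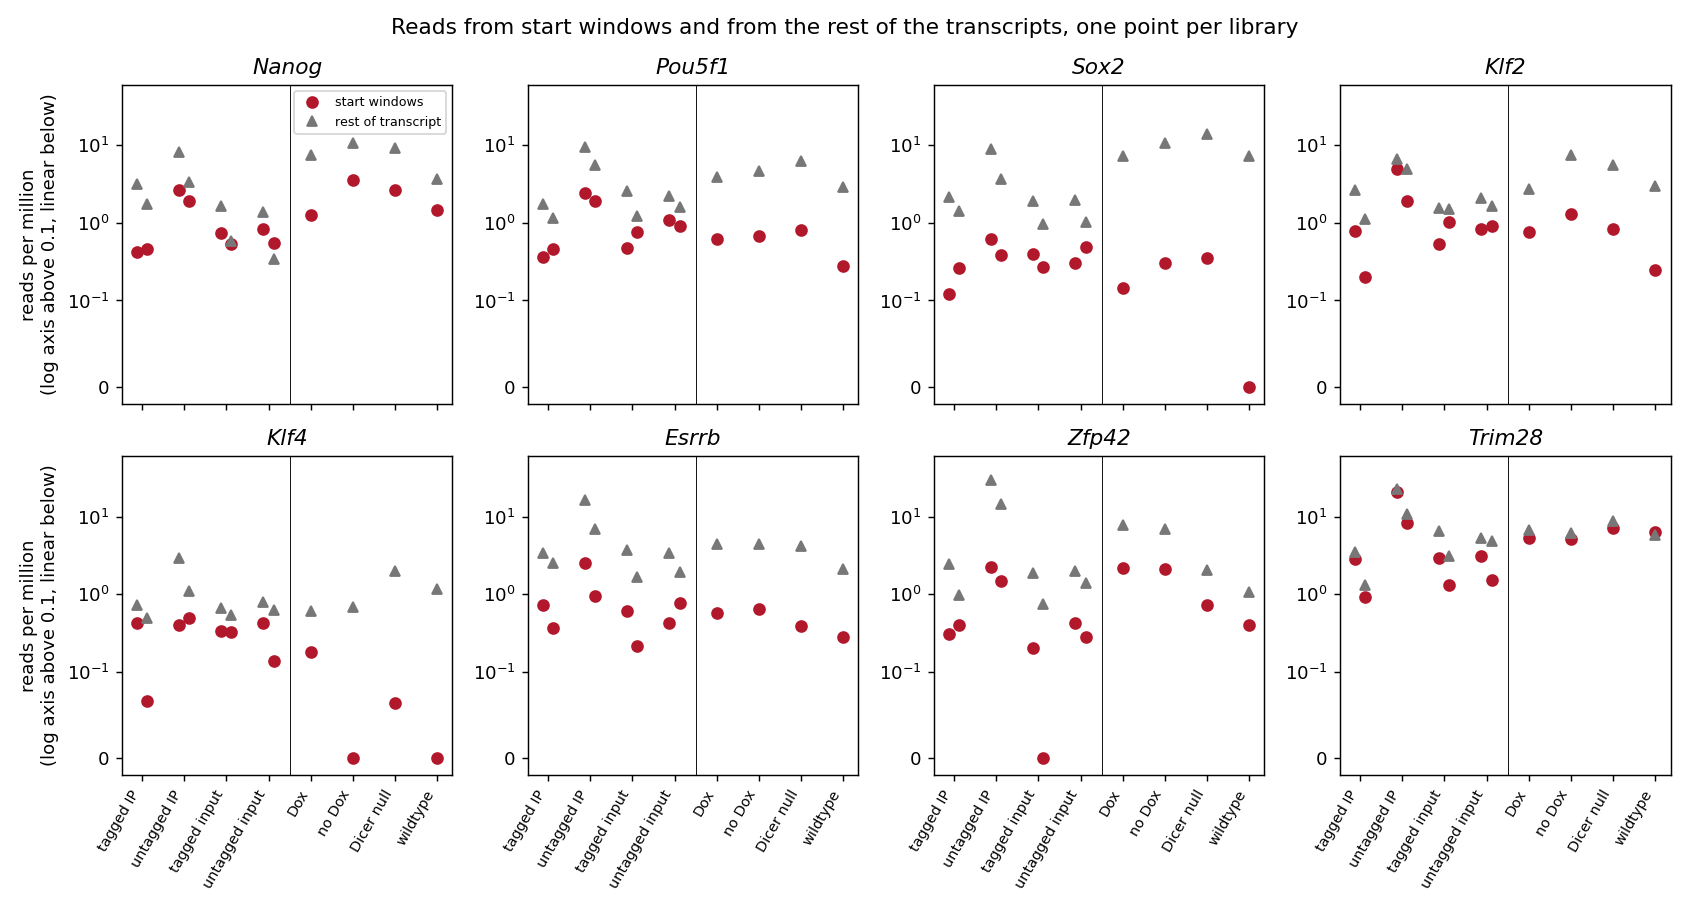
CPM from the start windows (circles) and from the rest of the transcripts (triangles) of the 8 genes, a point per library; the line parts the IP experiment from the single libraries. Window points of the untagged IPs are the highest of the IP experiment for Nanog, Pou5f1, Klf2, Esrrb, Zfp42 and Trim28.

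Against their own inputs, no member window was called in the tagged IPs, where 8.62% of windows were called in either direction. Log2 changes ran between -0.74 for Klf2 and 1.88 for Zfp42. Zfp42 windows rest here on few reads, 5 and 12 in the tagged IPs and 3 and 0 in the tagged inputs, where 0 reads allow up to 0.16 CPM in tagged input B. In the untagged IPs 4 of 6 members were higher than in their inputs, against 59.9% of all windows. These were Trim28 (2.64 ± 0.68), Zfp42 (2.39 ± 0.78), Klf2 (1.98 ± 0.72) and Nanog (1.70 ± 0.70; SE, edgeR adjusted p = 0.0376), while Esrrb had 1.56 ± 0.76 and Pou5f1 1.13 ± 0.68. With TMM factors, or without either untagged input, none of them was called, and with TMM factors Nanog, Pou5f1 and Esrrb had changes below 0. The Zfp42 window passed the filter only through the untagged IPs. Without the filter, 1 of 8 members and 158 of 11971 windows were called higher in the untagged IPs than in their inputs. Between the 2 kinds of input edgeR called 0 of 928 windows, with 15 at an unadjusted p under 0.05.

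The difference between the lines in IP over input was called for 1 member, Trim28, at -2.82 ± 0.95 (SE, edgeR adjusted p = 0.0397), where 20.5% of windows were called lower. With TMM factors no member was called, and likewise when any of 6 of the 8 libraries was left out, each in turn.

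Scaled by library totals, reads from the rest of the transcripts gave calls in the same directions as the windows. In the tagged against the untagged IPs 5 of 8 members were lower (Zfp42 at -3.72 ± 0.95, Trim28, Pou5f1, Esrrb and Sox2), against 85.1% of 3635 genes. In the untagged IPs against their inputs 5 of 8 were higher (Zfp42, Nanog, Esrrb, Sox2 and Pou5f1), against 84.8% of genes. In the tagged IPs against their inputs 0 of 8 were called, against 1.93% of genes. Zfp42, at 2.43 and 0.96 CPM in the tagged IPs and 29.9 and 14.6 CPM in the untagged IPs, had the largest gap of the 8 genes; when either tagged IP was left out no member was called in that contrast, and when either untagged input was left out none was called in the untagged IPs against inputs. With TMM factors no member was called in any of these contrasts, and 6 of 8 changes turned their sign both in the tagged against the untagged IPs (member median 0.64, against -1.93 with library totals) and in the untagged IPs against their inputs (-0.62, against 2.03).

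The ratio of window to rest reads within a library does not depend on its total. By limma on the log2 ratio, over 1114 genes, no member was called in any of 5 contrasts. In the tagged IPs against their inputs 4.58% of genes were called, and in the untagged IPs against theirs 5.48%. Zfp42 had a log2 ratio change of 1.88 ± 0.74 in the tagged IPs against their inputs (SE, limma adjusted p = 0.169) and Nanog -1.71 ± 0.71 (limma adjusted p = 0.193). For the tagged against the untagged IPs limma called 0 genes, with 93 at an unadjusted p under 0.05.

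Dox, which switches on the tagged Ago2, was compared with no Dox in a single library of each kind, so ratios have counting intervals only and no test; a ratio was called past 2-fold where the pair of libraries held at least 50 reads of the window. Of the 4 member windows with that many, Nanog alone was past 2-fold lower with Dox, and 4.65% of 301 windows were. Nanog windows had 35 reads (1.26 CPM) with Dox and 95 reads (3.58 CPM) without it, a ratio of 0.35 (95% interval 0.23 to 0.52). Its rest reads were 7.55 CPM with Dox and 10.9 CPM without it, a ratio of 0.70 (95% interval 0.58 to 0.83). The window interval lies below that of the rest, but the intervals overlap when each distinct sequence is counted once (0.25 to 0.60 and 0.59 to 0.87) or when only the reference start is taken (0.25 to 0.64 and 0.55 to 0.78).

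For Klf2 the rest had the lower ratio. Its window had 0.75 CPM with Dox and 1.32 CPM without it, a ratio of 0.57 (95% interval 0.32 to 1.01), and its rest 2.73 CPM with Dox and 7.46 CPM without it, a ratio of 0.37 (95% interval 0.28 to 0.48). That rest ratio was the only member's past 2-fold, as for 8.64% of 2696 genes in the lower direction. Zfp42 and Trim28 windows had ratios of 1.02 and 1.03 with intervals of 0.70 to 1.5 and 0.81 to 1.31. The median window ratio on the log2 scale was -0.09 and the median rest ratio -0.27.

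As shares of library totals, windows were mostly higher in Dicer-null than in wildtype cells. The median log2 ratio of Dicer-null over wildtype was 0.64 over 1114 windows and 0.79 over 5254 rests, with hairpin reads at 1.42% and 21.1% of these libraries. Pou5f1 windows had 0.80 CPM in Dicer-null and 0.28 CPM in wildtype cells, a ratio of 2.87 (95% interval 1.42 to 6.56). Klf2 windows had 0.83 CPM in Dicer-null and 0.25 CPM in wildtype cells, a ratio of 3.33 (95% interval 1.59 to 8.03). These 2 of 5 windows were past 2-fold higher, against 27.9% of all windows.

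Nanog and Zfp42 windows had ratios of 1.79 and 1.80 (95% intervals 1.30 to 2.52 and 0.97 to 3.58), and Trim28 windows 1.13 (0.96 to 1.33), below the median of all windows. The intervals of Zfp42 and Trim28 include 1, and with hairpin reads left out of the totals the Trim28 ratio was 0.90. Sox2 windows had 28 reads in Dicer-null cells and 0 in wildtype cells, fewer than 50 reads in all. Against the 3 reads that a count of 0 allows, the Dicer-null CPM was 3.82-fold higher. This value leaves out the counting error of the 28 reads and is no lower bound. In the rest of the transcripts Nanog (2.58), Pou5f1 (2.19) and Esrrb (2.01) were past 2-fold, as 37% of genes were; with the hairpin reads left out of the totals, Nanog alone was.

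**Figure D5:**
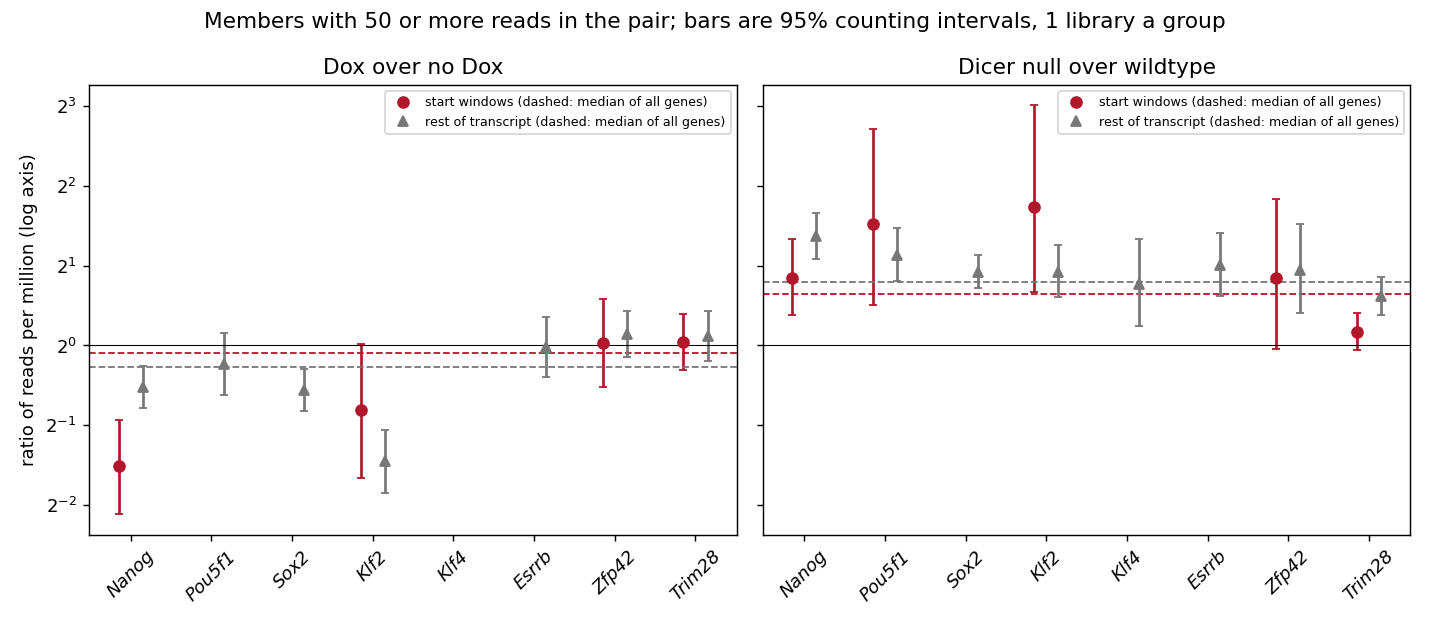
Ratio of the CPM of the single libraries, Dox over no Dox and Dicer null over wildtype, for members with at least 50 reads in the pair (circles, start windows; triangles, rest), with 95% counting intervals and the median of all genes dashed. With Dox the Nanog window (0.35) and the Klf2 rest (0.37) lie lowest; the plotted Dicer-null ratios lie above 1, with intervals of the Zfp42 and Trim28 windows that include 1.

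Of 30 other pluripotency genes, 12 had windows past the filter, and 12 were lower in the tagged than in the untagged IPs (86.1% of all windows were), 0 called in the tagged IPs against their inputs (8.62% of all) and 6 higher in the untagged IPs against theirs (59.9% of all). Their median log2 changes were -2.55, -0.70 and 1.70. How many of the 12 passed the filter only through the untagged IPs was not counted. The most abundant were Dppa5a, Jarid2 and Rif1, with means of 1.58, 1.15 and 1.13 CPM over 12 libraries. With Dox against no Dox 0 of 6 were past 2-fold, and in Dicer-null against wildtype cells 3 of 8 were higher, against 27.9% of all windows. No differentiation gene had a window past the filter; Otx2, Nes and Pax6 had the highest means, 0.09, 0.04 and 0.03 CPM.

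Over the 12 libraries, the window most like that of Trim28 by Pearson's r of log2(CPM + 0.5), among 263 windows with a mean of at least 1 CPM, was Eif4g2 (r = 0.98), for Nanog Ptcd3 (r = 0.93) and for Klf2 Pfn1 (r = 0.91). The points share library totals, and the median r over the other windows was 0.77, 0.70 and 0.61 for these genes. In the Dicer-null and wildtype libraries Zfp42 windows, at 0.72 and 0.40 CPM, were lower than in the TT-FHAgo2 line with and without Dox, at 2.16 and 2.11 CPM; lines and libraries cannot be told apart.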

How the data were processed

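Per the labels, RNA of 18 to 75 nt was cut from gels and cloned by a circularization protocol (8 libraries) or with a kit that needs a 5' phosphate (4 libraries). The authors deposited, per library, distinct sequences with raw read counts, not normalised; trimming and alignment are not given in the sources used here. Reads were matched exactly to 141767 GENCODE vM21 transcripts (55450 genes). Matches of window reads elsewhere in the genome could not be searched. CPM divides by the file total. Both libraries of each group differed by more than sampling noise (window chi-square over its degrees of freedom 3.22 to 20.0). Nothing says that they came from separate cultures, so the p-values cover a spread that may be technical. Intervals and floors (3 reads) cover counting error only.

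For the 8 replicated libraries, edgeR 4.0.16 in R 4.3.3 fitted all 4 groups at once (quasi-likelihood, library totals, default filter); limma 3.58.1 tested log2((window + 0.5)/(rest + 0.5)) with at least 40 reads each; DESeq2 1.42.0 was an alternative. Matching used Python 3.11.15 and numba 0.67.0, permutation tests scipy 1.17.1. Simulated counts for the tagged over untagged IP contrast gave back 51 of 84 4-fold and 10 of 77 2-fold changes among 690 windows, with 2 false calls of 529. Their spread was a fixed setting, not taken from these libraries, and group means were equal apart from the planted changes. The recovery in the real data may therefore differ. Members and lists were chosen with earlier results of these data known. The text names the members, the 3 most abundant windows of each list, and, for members of at least 1 CPM, the most similar window; the printed reads are each gene's most frequent of at most 30 nt, in the tagged IPs or over all libraries. Alternatives were other totals, filters, windows, read lengths, distinct sequences, a replicate block and left-out libraries.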

Additional observations from a re-analysis of the deposited data

Results flagged for a closer look

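The Trim28 window differed between the lines in IP over input, with a log2 change of -2.82 in the tagged minus the untagged line (edgeR adjusted p = 0.0397). What stood out is that this difference passed its own test, as it did for 20.5% of windows in that direction. Of the 1776 Trim28 window reads, 10 lie in the reference start.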

How the results depend on the processing

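Counts below are members called, with the value as reported first. For windows in the tagged against the untagged IPs 6 became 0 with TMM, 0 with DESeq2, 1 with hairpin reads left out of totals and 0 with their end variants left out too (an alternative chosen after seeing the data). In the tagged IPs against inputs 0 became 3 with the end variants left out. In the untagged IPs against inputs 4 became 0 with TMM and DESeq2, 1 without a filter and 1 with each distinct sequence once. For the difference between lines 1 became 0 under TMM, DESeq2, either hairpin setting, no filter and distinct sequences. For the rest, 5 lower became 0 with TMM, DESeq2 or either hairpin setting and 2 without a filter; 5 higher became 0 with TMM and DESeq2 and 2 without a filter; 0 in the tagged IPs against inputs became 5 with end variants left out. Leaving out each library gave 0 to 6, 0 to 5 and 0 to 2 windows, and 0 to 7, 0 to 7 and 0 to 1 in the rest, for the 3 contrasts that moved. The cause was not tested.

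The replicate codes are not stated to pair libraries, and the correlations of same-coded deviations ran between 0.04 and 0.25; with a replicate block the counts were 6 windows in the untagged IPs against inputs (4 without it), 3 windows for the difference between lines, and 8, 8 and 7 members in the rest. Signs reversed, without a call, in the tagged against the untagged IPs with TMM and DESeq2 for Nanog (0.25 and 0.25), Pou5f1 (0.24 and 0.24), Esrrb (0.87 and 0.91) and Zfp42 (0.25 and 0.25), for Esrrb with end variants left out (0.14), and for Nanog in the untagged IPs against inputs (-0.13 and -0.13). In the rest 6 of 8 members turned their sign with TMM and with DESeq2 in each of these contrasts. With hairpin reads left out of totals 4 of 6 window changes in the tagged IPs against inputs turned positive. In Dicer-null over wildtype cells, 2 windows past 2-fold became 1 with reads of 22 nt or more and 0 in the first 100 nt (Klf2 fell under 50 reads in both, with ratios of 2.87 and 1.43, and Pou5f1 in the second, at 1.98), and 3 rests became 1, 0 and 1 with hairpins, their end variants left out, and distinct sequences; the Trim28 window ratio fell to 0.90 and 0.86 with hairpins and with end variants left out. The ratio calls (0 in 5 contrasts) and the direction of the 20 to 24 nt shares held under all alternatives run. Depth limits Sox2 and Klf4 windows most, with 0 to 28 and 0 to 9 reads a library.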
